A study of Mus musculus with 6 samples.

Results

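The genes described here are those of antigen presentation by the major histocompatibility complex (MHC), called H-2 in the mouse. They were taken as every gene whose symbol starts with H2-, named pseudogenes with the suffix -ps left out, together with Cd74, B2m, Tap1, Tap2, Tapbp, Ciita and Nlrc5. 46 of the 25428 probe sets on the arrays met that rule, 1 probe set per gene. By role they were 2 classical class I heavy chains, 4 genes of the class I light chain and peptide loading, 24 class Ib genes, 1 further class I pseudogene (H2-K2), 5 class II chain genes, 5 genes of class II peptide exchange, 1 class II pseudogene, the invariant chain, 2 regulators and 1 gene of other function that carries an H2 symbol. RefSeq lists H2-Q5, H2-T10 and H2-Bl of class Ib and H2-Ea of the class II chains as transcribed pseudogenes, and they are counted in those classes here.

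The levels came from whole lung lobes of 6 male mice kept for 7 days at 10% oxygen, 3 controls (Nfat5fl/fl) and 3 mice lacking Nfat5 in smooth muscle cells (Nfat5(SMC)-/-). All carried floxed alleles of Nfat5, the gene of a transcription factor of the osmotic stress response. In the Nfat5(SMC)-/- mice these were removed by a tamoxifen-inducible Cre recombinase, SM-MHC-CreERT2, that is driven by the promoter of smooth muscle myosin heavy chain, where "MHC" does not stand for the histocompatibility complex. According to the methods the Nfat5(SMC)-/- mice received tamoxifen at an age of 10 to 12 weeks and the controls its carrier alone, so that the drug and the deletion cannot be told apart. No source used here names the strain, and H-2 genes differ between strains in sequence and number. Mice were numbered 1, 2 and 4 in each group.

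Class I molecules present peptides from inside the cell to CD8 T cells. Each is a heavy chain bound to beta-2 microglobulin, loaded with peptides that the proteasome cuts and the TAP transporter carries into the endoplasmic reticulum. Class Ib molecules share that fold, vary less between animals and have narrower tasks. Class II molecules present peptides from endosomes to CD4 T cells, mainly on dendritic cells, B cells and macrophages. The invariant chain guards their groove until H2-DM exchanges its remnant for a peptide, and H2-DO restrains H2-DM. In the lung, alveolar type 2 cells carry class II molecules as well.

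Levels are log2 values made by robust multi-array averaging (RMA), and a difference is Nfat5(SMC)-/- minus Nfat5fl/fl on that scale. The limma test was two-sided and adjusted over all 25428 probe sets. Where values of 3 lungs are listed, they stand in the order of mice 1, 2 and 4. Nfat5 itself measured 9.18, 8.62 and 9.21 in Nfat5fl/fl lungs and 8.23, 7.72 and 7.89 in Nfat5(SMC)-/- lungs. The groups did not overlap, with a difference of -1.06 (SE 0.20, adjusted p = 0.0707). The lung of Nfat5(SMC)-/- mouse 1 stood apart, correlating on average at 0.970 with the others of its group where the other 5 lungs reached 0.980 to 0.991.

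None of the MHC and antigen presentation genes passed the test. 0 of 46 had an adjusted p under 0.05 by limma, against 0.818% of all probe sets. The methods' t-test also called 0 of the 46, but it called 0 of all probe sets, so that count is not particular to these genes. At an unadjusted p under 0.05 there were 7 with a higher and 0 with a lower mean in Nfat5(SMC)-/- lungs, where 8.19% of all probe sets lay higher and 11.1% lower (13.9% and 18.6% of those above the array median of 4.96). In 9 genes every Nfat5(SMC)-/- lung lay above every Nfat5fl/fl lung (11.8% of all probe sets), and in 2 every one lay below (15.0%). The median difference over the 46 was -0.02, with 21 higher and 25 lower, and over all probe sets -0.00081.

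**Figure D1:**
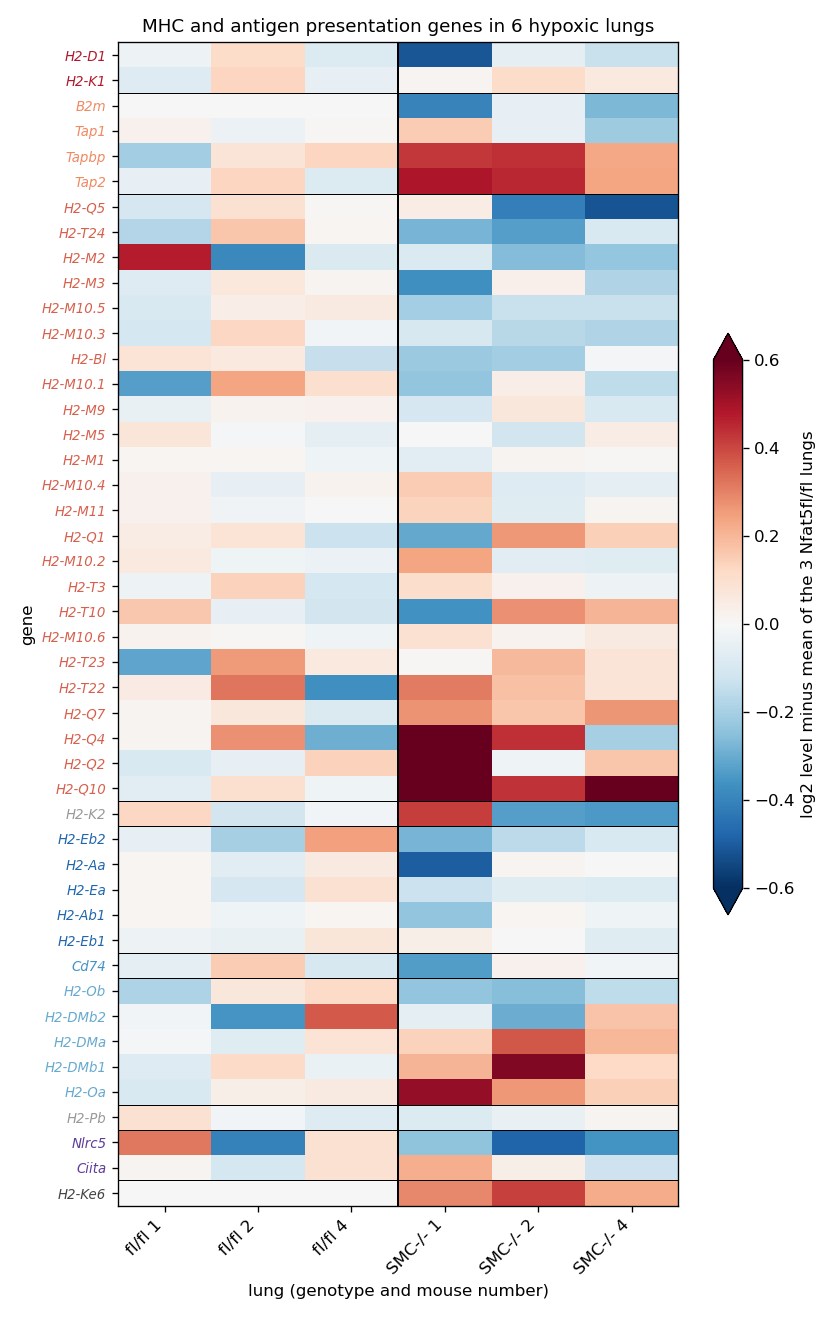
The 46 genes (rows, by class) in the 6 lungs (columns), coloured by log2 level minus the mean of the 3 Nfat5fl/fl lungs, with colours ending at 0.6 in either direction. Red and blue rows stand side by side within most classes, and the column of Nfat5(SMC)-/- mouse 1 holds the lowest value of 15 of the 46 genes and of 33.8% of all probe sets.

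The roles differed in their values. The class I light chain and loading group had a median difference of 0.16 (4 genes, 2 higher). The median was -0.09 for the classical class I chains (1 higher, 1 lower) and 0.02 for class Ib (13 higher, 11 lower). Over the 11 class II genes it was -0.06 (3 higher, 8 lower). Within class II the 5 chain genes all had lower means (median -0.10), while 3 of the 5 peptide exchange genes had higher ones (median 0.24). These medians are descriptions of few genes, and no class was tested against another. Relative to the control mean, the class II chains averaged -0.22 in Nfat5(SMC)-/- mouse 1 and -0.04 and -0.05 in mice 2 and 4. The controls ranged from -0.09 to 0.10 on that measure.

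**Figure D2:**
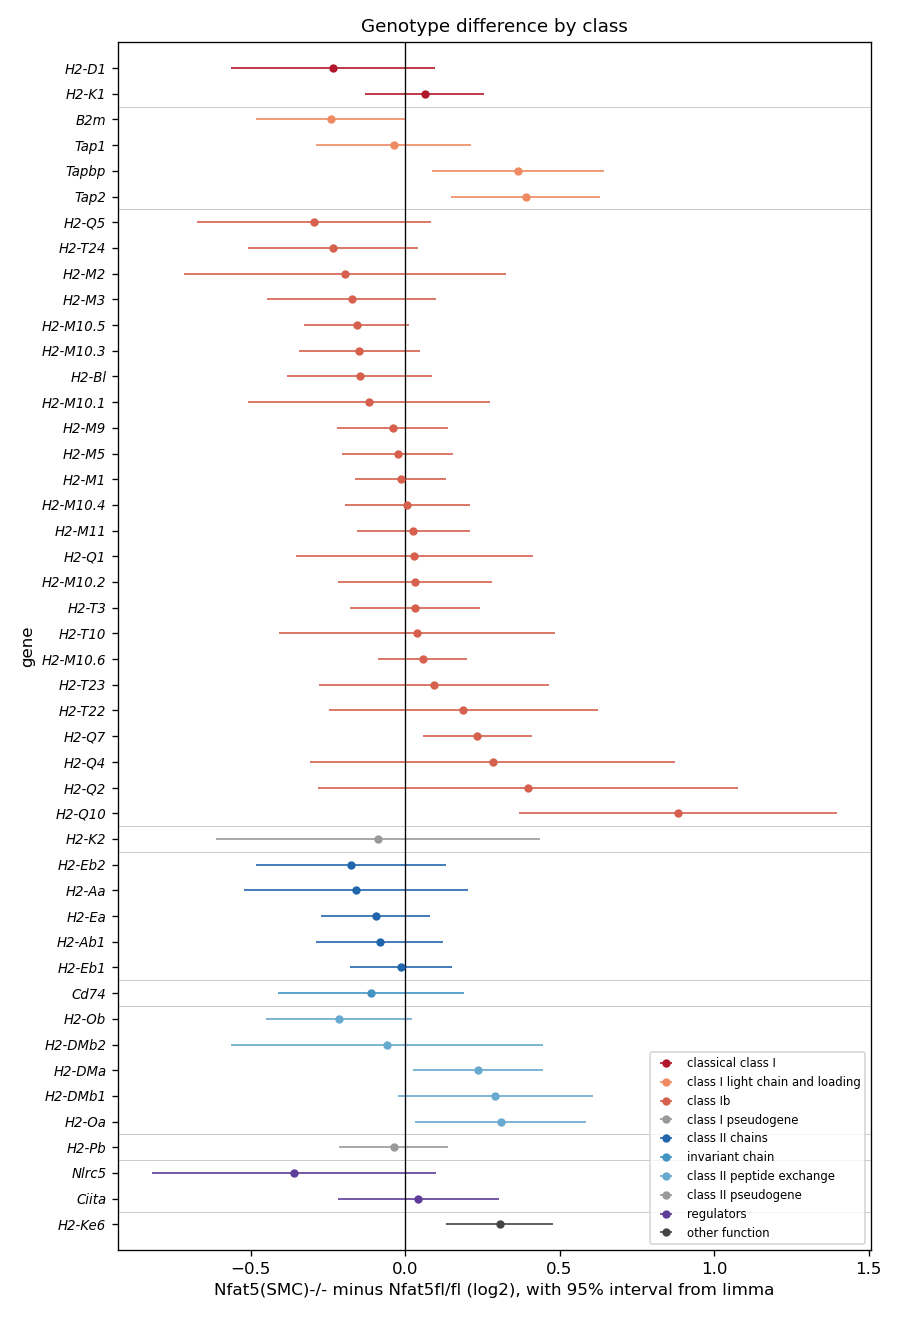
Difference in log2 level, Nfat5(SMC)-/- minus Nfat5fl/fl, for each of the 46 genes, ordered by class, with 95% intervals from limma (n = 3 lungs per group). The intervals of Tap2, Tapbp, H2-Q7, H2-Q10, H2-DMa, H2-Oa and H2-Ke6 lie wholly above 0, and none lies wholly below it.

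Of the classical class I heavy chains, H2-D1 measured 12.40, 12.54 and 12.35 in Nfat5fl/fl lungs and 11.92, 12.38 and 12.30 in Nfat5(SMC)-/- lungs. The groups overlapped and mouse 1 of the second group was lowest, with a difference of -0.23 (95% interval -0.56 to 0.10, adjusted p = 0.406). H2-K1, the other chain of this kind, measured 10.86, 11.07 and 10.89 in controls and 10.96, 11.05 and 11.002 without Nfat5 in SMCs. The Nfat5(SMC)-/- values of H2-K1 lay within the range of the controls. Its difference was 0.06 (95% interval -0.13 to 0.26, adjusted p = 0.721), and an increase or decrease of the size seen for Tap2 lies outside that interval.

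B2m encodes beta-2 microglobulin, the light chain that class I and most class Ib molecules share. Its level was 13.31 in each of the 3 Nfat5fl/fl lungs and 12.91, 13.26 and 13.04 in the Nfat5(SMC)-/- lungs. The equal control values are equal ranks: quantile normalisation gives the same value to the same place in the order of an array, and B2m was number 6 from the top on all 3 control arrays and number 15, 7 and 11 on the others. All Nfat5(SMC)-/- lungs were below all controls, by 0.24 on average (95% interval -0.48 to 0.00034, unadjusted p = 0.0502, adjusted p = 0.260). With a control spread of 0, the error that limma gives B2m rests on the Nfat5(SMC)-/- lungs and on the spread of the other genes.

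The peptide loading genes had unlike values. Tap2, a subunit of the peptide transporter, measured 6.88, 7.06 and 6.85 in Nfat5fl/fl lungs and 7.42, 7.38 and 7.17 in Nfat5(SMC)-/- lungs. The groups did not overlap, and the difference was 0.39 (SE 0.10, 1.31-fold, adjusted p = 0.111). Tap1, the other subunit of the same transporter, measured 8.89, 8.82 and 8.87 against 9.01, 8.81 and 8.64, with overlap and a difference of -0.04 (SE 0.10, adjusted p = 0.888). Tapbp encodes tapasin, which bridges the class I heavy chain and the transporter. It was at 9.58, 9.87 and 9.92 in controls and at 10.21, 10.22 and 10.02 in Nfat5(SMC)-/- lungs. All of the latter lay above all of the former, with a difference of 0.37 (SE 0.11, adjusted p = 0.164).

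**Figure D3:**
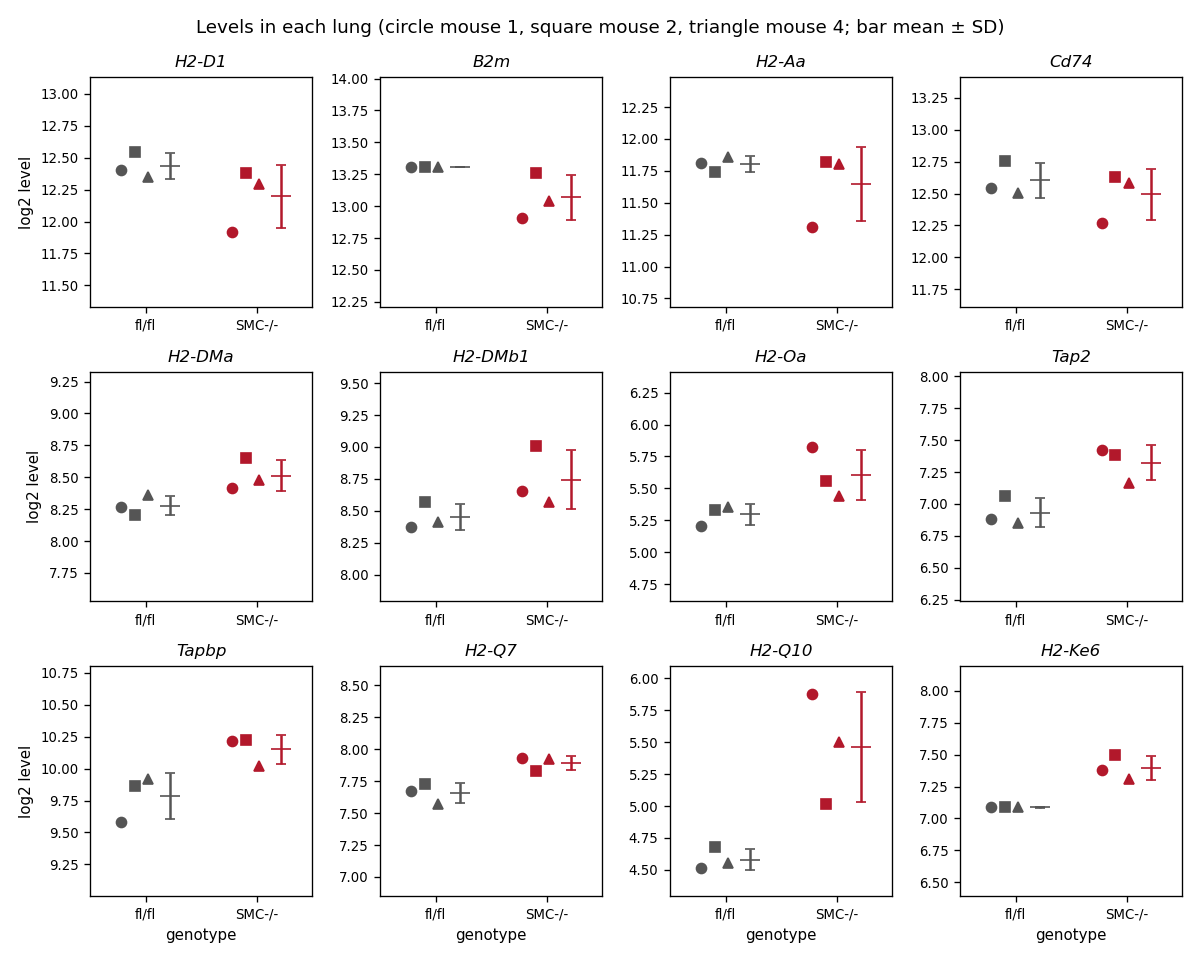
Log2 levels of 12 of the genes in each lung, with Nfat5fl/fl in grey and Nfat5(SMC)-/- in red (circle mouse 1, square mouse 2, triangle mouse 4; bars show mean ± SD, n = 3, and every panel spans the same log2 range). In H2-D1, B2m, H2-Aa and Cd74 the circle of Nfat5(SMC)-/- mouse 1 is lowest, whereas the groups stand apart, with Nfat5(SMC)-/- above, in H2-DMa, H2-DMb1, H2-Oa, Tap2, Tapbp, H2-Q7, H2-Q10 and H2-Ke6.

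Promoter sequence is shown for B2m, a classical heavy chain and the 2 class Ib genes above the controls at an unadjusted p under 0.05, because MHC promoters share a CCAAT box. The 200 bases before the start are from RefSeq (GRCm38.p6), printed 5′ to 3′ on the strand of the gene, with the box in capitals (CCAAT, or ATTGG where it lies on the other strand). The windows are chr2:122147487-122147686 (+) for B2m, chr17:35262894-35263093 (+) for H2-D1, chr17:35438955-35439154 (+) for H2-Q7 and chr17:35469889-35470088 (+) for H2-Q10.
B2m: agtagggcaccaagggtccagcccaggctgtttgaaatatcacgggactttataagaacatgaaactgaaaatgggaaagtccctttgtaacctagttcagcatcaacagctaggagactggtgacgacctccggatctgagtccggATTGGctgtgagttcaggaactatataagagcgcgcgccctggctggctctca
H2-D1: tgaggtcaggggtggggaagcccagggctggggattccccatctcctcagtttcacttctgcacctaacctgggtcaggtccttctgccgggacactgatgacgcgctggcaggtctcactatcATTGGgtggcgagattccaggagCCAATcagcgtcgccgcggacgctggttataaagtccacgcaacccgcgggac
H2-Q7: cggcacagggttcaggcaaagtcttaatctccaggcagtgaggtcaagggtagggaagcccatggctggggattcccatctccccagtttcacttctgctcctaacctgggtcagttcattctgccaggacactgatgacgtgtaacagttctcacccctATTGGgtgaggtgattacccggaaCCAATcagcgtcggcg
H2-Q10: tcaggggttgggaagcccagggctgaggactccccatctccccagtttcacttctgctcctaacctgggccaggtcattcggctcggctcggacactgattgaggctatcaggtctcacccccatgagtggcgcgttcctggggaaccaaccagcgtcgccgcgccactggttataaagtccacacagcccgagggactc

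B2m, with a lower mean, and H2-Q7, with a higher mean, both held a CCAAT box, and H2-Q10, the gene with the highest difference of the 46, held none in this window. The heavy chain genes are related copies (the longest run of letters shared by the H2-Q7 and H2-Q10 windows was 37 bases), so that their windows are not independent examples. Over both strands, CCAAT was found in 31 of the 36 windows of 33 member genes with an entry (86.1%), against 29.3% of 32851 mouse windows of that length. The cyclic AMP response core TGACG, part of the X2 box, was in 14 (38.9%, against 15.7%). The core of an interferon-stimulated response element, GAAA repeated after 2 bases of any kind, was in 3 (8.33%, against 2.27%), those of B2m, H2-T22 and H2-T23. TGGAAA, the core of the element that NFAT proteins bind, was in 8 (22.2%, against 14.7%). TGGAAA and the GAAA repeat can share letters. A match gives letters, not binding.

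Among the 24 class Ib genes, 11 exceeded the array median in at least 1 group mean and 6 were no higher than the lower quartile of 4.30, so levels of many were near the floor of the array. H2-Q10, which in mice encodes a secreted class I protein of the liver, had the highest difference of the 46. It measured 4.51, 4.68 and 4.55 in Nfat5fl/fl lungs, below the array median, and 5.88, 5.01 and 5.50 in Nfat5(SMC)-/- lungs. The groups did not overlap, and the difference was 0.88 (SE 0.21, 1.84-fold, adjusted p = 0.101). Without Nfat5(SMC)-/- mouse 1 it was 0.68 (adjusted p = 0.0751).

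H2-Q7, a gene of the Qa-2 antigen, was measured at 7.68, 7.73 and 7.57 in controls and at 7.93, 7.83 and 7.92 in Nfat5(SMC)-/- lungs. These groups stood apart too, by 0.23 (SE 0.07, adjusted p = 0.160). H2-Q2 differed by 0.40 (adjusted p = 0.495), but that came from a single lung: Nfat5(SMC)-/- mouse 1 was at 6.08 and the other 5 lungs lay between 4.93 and 5.18. Without it the difference of H2-Q2 was 0.07. The Q genes are near copies of each other, and probes of one can bind transcripts of another.

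The lowest class Ib differences were those of H2-Q5, a transcribed pseudogene in RefSeq, and H2-T24. H2-Q5 measured 8.03, 8.22 and 8.13 in Nfat5fl/fl lungs and 8.17, 7.72 and 7.61 in Nfat5(SMC)-/- lungs, with a difference of -0.30 (SE 0.16, adjusted p = 0.368). Here Nfat5(SMC)-/- mouse 1 lay among the controls and mice 2 and 4 below them. Without mouse 1 the difference was -0.47 (limma, adjusted p = 0.0481), and 980 of the 25428 probe sets passed the test in that fit. H2-T24 measured 6.32, 6.66 and 6.51 against 6.22, 6.17 and 6.41 (difference -0.23, adjusted p = 0.328), with overlap.

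The remaining class Ib genes differed by -0.19 to 0.28. H2-T23, which encodes Qa-1, a ligand of NK cell receptors, measured 7.48, 8.06 and 7.86 in controls and 7.81, 7.99 and 7.87 in Nfat5(SMC)-/- lungs, which lay within that range. H2-M3 presents peptides that start with formylmethionine, and it measured 7.44, 7.58 and 7.53 against 7.15, 7.54 and 7.34. H2-T22, seen by gamma delta T cells, measured 8.24, 8.51 and 7.82 against 8.50, 8.36 and 8.27. In each of these the groups overlapped (limma, adjusted p = 0.460 to 0.796). H2-M10.5 and H2-M10.6 had no overlap between groups (differences -0.16 and 0.06, adjusted p = 0.289 and 0.659), but both measured under the lower quartile in all 6 lungs. The M10 family is known from the vomeronasal organ.

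The class II chains had small differences. H2-Eb1, the beta chain of I-E, measured 10.25, 10.24 and 10.36 in Nfat5fl/fl lungs and 10.32, 10.28 and 10.21 in Nfat5(SMC)-/- lungs. The groups overlapped, with a difference of -0.01 and a 95% interval of -0.18 to 0.15. H2-Ab1, the beta chain of I-A, measured 12.09, 12.05 and 12.09 against 11.84, 12.09 and 12.05 (difference -0.08, 95% interval -0.29 to 0.12, adjusted p = 0.649). H2-Aa, the alpha chain of I-A, measured 11.81, 11.74 and 11.86 against 11.31, 11.82 and 11.81 (difference -0.16, adjusted p = 0.616). In both chains of I-A, Nfat5(SMC)-/- mouse 1 was the lowest lung, and mice 2 and 4 were among the controls. H2-Ea and H2-Eb2 were at levels below the array median in most or all lungs and differed by -0.10 and -0.18. For H2-Eb2 that was -0.05 without control mouse 4 and -0.28 without control mouse 2. H2-Ea is a transcribed pseudogene in RefSeq.

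Cd74, the invariant chain, was likewise lowest in Nfat5(SMC)-/- mouse 1. It measured 12.55, 12.76 and 12.51 in Nfat5fl/fl lungs and 12.27, 12.63 and 12.58 in Nfat5(SMC)-/- lungs, with a difference of -0.11 (95% interval -0.41 to 0.19, adjusted p = 0.687). Nfat5(SMC)-/- mouse 1 was the lowest lung for all 5 genes of the 46 with a mean level above 11 (B2m, Cd74, H2-D1, H2-Ab1 and H2-Aa). It was also lowest for 106 of all 209 probe sets with such a level (50.7%). Without that lung the differences of H2-Aa and Cd74 were 0.0088 and 0.0038, that of H2-Ab1 -0.0063, that of H2-D1 -0.09 and that of B2m -0.16.

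Of the 5 peptide exchange genes, 3 had higher and 2 lower means. H2-DMa, the alpha chain of H2-DM, measured 8.27, 8.21 and 8.36 in Nfat5fl/fl lungs and 8.42, 8.65 and 8.48 in Nfat5(SMC)-/- lungs. All Nfat5(SMC)-/- values were above those of the controls, with a difference of 0.24 (SE 0.09, adjusted p = 0.213). H2-DMb1, its beta chain, was at 8.37, 8.57 and 8.41 in controls and at 8.65, 9.004 and 8.57 in Nfat5(SMC)-/- lungs. Again the groups did not overlap, although Nfat5(SMC)-/- mouse 4 exceeded control mouse 2 by under 0.01 (difference 0.29, SE 0.13, adjusted p = 0.290). H2-DMb2, a near copy of that beta chain, measured 9.93, 9.60 and 10.32 against 9.90, 9.65 and 10.12. It varied more between lungs of a group than between groups (difference -0.06, SE 0.21, adjusted p = 0.913).

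Both subunits of H2-DO, the inhibitor of H2-DM known mostly from B cells, had differences of opposite sign. H2-Oa measured 5.20, 5.33 and 5.35 in Nfat5fl/fl lungs and 5.82, 5.55 and 5.44 in Nfat5(SMC)-/- lungs, without overlap (difference 0.31, SE 0.11, adjusted p = 0.214). H2-Ob measured 5.59, 5.84 and 5.89 against 5.54, 5.52 and 5.62 (difference -0.21, SE 0.10, adjusted p = 0.299), and 1 Nfat5(SMC)-/- lung lay above the lowest control. The difference between these 2 differences was not tested. Since whole lobes were measured, more cells of a type cannot be told apart from more transcript in each cell.

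Promoter windows of the class II genes are shown to set the chains beside the exchange genes. They are chr17:34287824-34288023 (-) for H2-Aa, chr17:34305667-34305866 (+) for H2-Eb1, chr17:34152991-34153190 (+) for H2-DMb1, chr17:34145049-34145248 (+) for H2-DMb2 and chr17:34092179-34092378 (+) for H2-Oa, with source and capitals as for class I.
H2-Aa: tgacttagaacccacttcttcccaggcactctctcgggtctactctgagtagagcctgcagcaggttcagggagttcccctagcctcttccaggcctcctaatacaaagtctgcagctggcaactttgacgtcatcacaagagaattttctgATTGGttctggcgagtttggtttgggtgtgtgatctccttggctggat
H2-Eb1: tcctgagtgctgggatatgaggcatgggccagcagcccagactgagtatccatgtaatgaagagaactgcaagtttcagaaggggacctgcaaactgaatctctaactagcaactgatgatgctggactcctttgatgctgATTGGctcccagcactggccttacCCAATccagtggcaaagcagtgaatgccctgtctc
H2-DMb1: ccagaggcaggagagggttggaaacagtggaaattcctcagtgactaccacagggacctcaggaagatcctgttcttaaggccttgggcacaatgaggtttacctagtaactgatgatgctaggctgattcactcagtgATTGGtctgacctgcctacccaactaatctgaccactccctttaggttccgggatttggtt
H2-DMb2: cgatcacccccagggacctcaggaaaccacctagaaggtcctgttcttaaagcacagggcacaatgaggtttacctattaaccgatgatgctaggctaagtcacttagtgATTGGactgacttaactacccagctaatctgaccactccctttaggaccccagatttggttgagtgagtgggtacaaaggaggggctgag
H2-Oa: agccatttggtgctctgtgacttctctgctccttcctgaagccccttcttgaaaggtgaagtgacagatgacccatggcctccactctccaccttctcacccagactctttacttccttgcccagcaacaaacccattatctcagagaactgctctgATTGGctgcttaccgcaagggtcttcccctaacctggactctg

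All of these held a CCAAT box, at 48 bases before the start in H2-Aa, 59 and 35 in H2-Eb1, 61 in H2-DMb1, 90 in H2-DMb2 and 43 in H2-Oa, counted from the base of the box that lies farthest upstream. H2-DMa, not shown, has 2 windows, of which 1 held no box and the other held one at 198 bases. The windows of H2-DMb1 and H2-DMb2 share runs of up to 23 bases, while those of H2-Aa and H2-Eb1 share at most 8. H2-DMb1 and H2-DMb2 had unlike differences all the same (0.29 and -0.06), which were not tested against each other. TGGAAA occurred 2 times in H2-DMb1 and in none of the other 4.

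The 2 regulators had unlike values. Ciita, the coactivator that class II promoters need, measured 7.45, 7.33 and 7.52 in Nfat5fl/fl lungs and 7.65, 7.47 and 7.31 in Nfat5(SMC)-/- lungs (difference 0.04, 95% interval -0.22 to 0.30, adjusted p = 0.873). Nlrc5, the class I counterpart, had the lowest difference of the 46. It measured 5.97, 5.25 and 5.75 against 5.42, 5.17 and 5.30. All Nfat5(SMC)-/- lungs were below control mice 1 and 4, and control mouse 2 lay among them (difference -0.36, SE 0.19, adjusted p = 0.365). Without control mouse 2 the difference was -0.56 (adjusted p = 0.115) and without control mouse 1 it was -0.20 (adjusted p = 0.665). H2-Ke6, also named Hsd17b8, encodes a dehydrogenase and takes no part in presentation. It had the smallest adjusted p of the 46, with 7.09 in all 3 Nfat5fl/fl lungs and 7.38, 7.497 and 7.31 in Nfat5(SMC)-/- lungs (difference 0.31, SE 0.07, adjusted p = 0.0958).

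H2-Ke6, Tapbp, H2-Oa, H2-DMa, H2-DMb1 and Tap2 all lie in the stretch from Tapbp to H2-Eb2. It holds the class II genes other than H2-Ea, and also H2-K1. The other genes of this stretch were examined, and it was chosen with the values known. From Tapbp to H2-Eb2 the gene table orders 31 measured genes. 16 are MHC and antigen presentation genes, of which 7 had higher means and 6 stood apart above the controls (11.8% of all probe sets). The other 15 comprised 14 with a higher mean (49.7% of all probe sets had one), with a median difference of 0.15 and 5 apart above the controls. Among them were Slc39a7, a zinc transporter (difference 0.52, adjusted p = 0.0708), Rxrb, a nuclear receptor (0.69, adjusted p = 0.126), and Pfdn6, a prefoldin subunit (0.46, adjusted p = 0.105). Of the 16 MHC and antigen presentation genes here, 14 exceeded the array median, and of the other 15, 11 did. Over all 5297 probe sets above the array median with a genomic span of 2 to 20 kb, 62.9% had a higher mean, with a median of 0.11. Of these 5297, 1178 stood apart above the controls, a larger share than the 11.8% of all probe sets. The 26 MHC genes beyond H2-Eb2 split evenly into 13 higher and 13 lower. The part of genomic span and of position in these values was not tested.

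**Figure D4:**
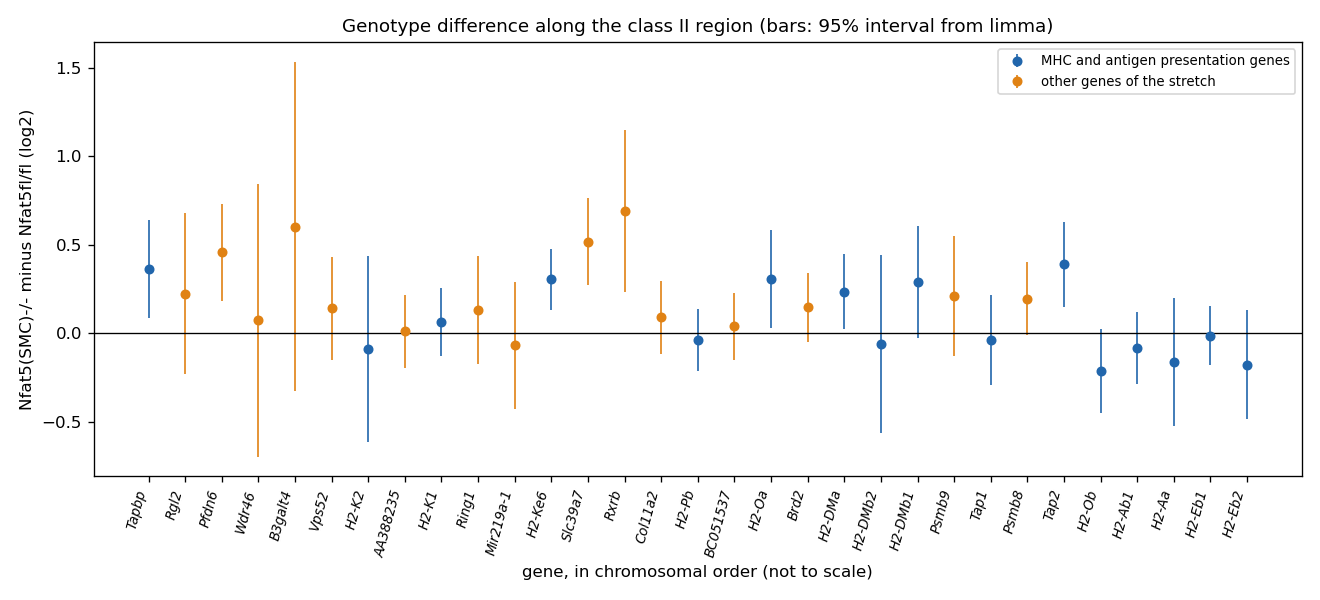
Difference in log2 level, Nfat5(SMC)-/- minus Nfat5fl/fl, of the 31 measured genes from Tapbp to H2-Eb2 in chromosomal order (not to scale), with 95% intervals from limma. MHC and antigen presentation genes (blue) are mixed above and below 0, and 14 of the 15 other genes (orange) lie above it.

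Other genes of the presentation pathways had no call at an adjusted p under 0.05 in any of 6 lists, against 0.818% of all probe sets. Of 12 genes that supply and load class I peptides, an unadjusted p under 0.05 was seen for 4 with a higher and 2 with a lower mean. Psme1, an activator subunit of the proteasome, measured 9.64, 9.88 and 9.73 against 10.09, 10.21 and 10.17 (difference 0.40, adjusted p = 0.0794), and Psme2, its partner, differed by 0.46 (adjusted p = 0.192). Erap1, which trims peptides in the endoplasmic reticulum, lay apart below the controls with a difference of -0.45 (adjusted p = 0.153). Psmb8 and Psmb9, the immunoproteasome subunits beside Tap1 and Tap2, differed by 0.20 and 0.21 (adjusted p = 0.276 and 0.468).

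Of 12 genes of class II processing and traffic, 4 were higher and 1 lower by the same measure. The protease Lgmn, also called asparagine endopeptidase, differed by 0.29 (adjusted p = 0.0906) and the cathepsin Ctsd by 0.28 (adjusted p = 0.110). Among the ubiquitin ligases that remove class II molecules from the surface, Marchf8 was higher (0.30, adjusted p = 0.105) and Marchf1 lower (-0.24, adjusted p = 0.153). Marchf1, unlike Marchf8, measured below the array median in every lung. Ctss, the main invariant chain protease of many antigen presenting cells, differed by 0.07 (adjusted p = 0.805). In all, 9 of these 12 had a higher and 3 a lower mean.

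Of the 7 proteins that bind X and Y boxes, only Creb1 had an unadjusted p under 0.05 (difference -0.31, adjusted p = 0.173). In the interferon gamma axis, which induces MHC genes, 5 of 15 genes were lower and 0 higher by that measure. The kinase Jak2 measured 8.98, 8.72 and 8.93 in Nfat5fl/fl lungs and 8.19, 8.41 and 8.14 in Nfat5(SMC)-/- lungs (difference -0.63, adjusted p = 0.0599). Gbp2, an interferon-induced GTPase, measured 8.51, 8.46 and 8.46 against 7.94, 8.12 and 8.14 (difference -0.41, adjusted p = 0.0687). Neither gene had overlapping groups. Ifng itself differed by -0.10 (adjusted p = 0.583) and Irf1 by 0.16 (adjusted p = 0.308).

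Mr1, an MHC-like gene outside the H-2 complex that shows vitamin B metabolites to T cells, measured 9.61, 9.39 and 9.48 in controls and 8.33, 8.67 and 8.83 in Nfat5(SMC)-/- lungs. The groups stood 0.88 apart on average (SE 0.14, adjusted p = 0.0572). Cd1d1, which presents lipids, differed by 0.27 (adjusted p = 0.154), but measured below the array median in every lung. Of 8 surface proteins of costimulation and checkpoints, Cd40 and Cd86 were lower (-0.44 and -0.30, adjusted p = 0.0943 and 0.185) and 0 were higher at an unadjusted p under 0.05. Across the 6 lists these counts stand beside the 8.19% and 11.1% of all probe sets. Most genes of each list exceeded the array median, and of all probe sets above it 13.9% lay higher and 18.6% lower.

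Cells that carry class II molecules were followed by their markers, as mean log2 levels per lung. For 10 B cell markers the range was 6.26 to 6.63 in Nfat5fl/fl and 6.38 to 6.96 in Nfat5(SMC)-/- lungs, with 7 higher, among them Cd79b (0.66) and Ms4a1 (1.00, adjusted p = 0.248 for each), and 3 lower, among them Fcer2a (-0.30, adjusted p = 0.325). For 12 macrophage markers it was 8.07 to 8.08 against 8.14 to 8.33, with 9 higher, among them C1qb (0.65, adjusted p = 0.0653) and C1qa (0.49, adjusted p = 0.0895), and 3 lower, among them Mertk (-0.31, adjusted p = 0.230), whose groups did not overlap. For 12 dendritic cell markers it was 5.43 to 5.60 against 5.44 to 5.59, with 5 higher, and Fscn1 and Clec9a differed by 0.66 and -0.33 (adjusted p = 0.0931 and 0.0914). For 8 alveolar type 2 cell markers the ranges were 11.84 to 11.98 and 11.70 to 12.04. Most B cell and macrophage markers thus had higher means. Of the 5 peptide exchange genes, H2-DMa, H2-DMb1 and H2-Oa had higher means, and H2-DMb2 and H2-Ob had lower ones. The class II chains had lower means, with Nfat5(SMC)-/- mice 2 and 4 within the range of the controls when the chains were averaged. The part of these cells in any of these values was not tested.

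Markers of other cells also differed. The 8 adipocyte markers all had higher means (median 2.495), with Plin1, Cfd and Cidec past the test. Of 8 endothelial markers, 4 were lower and 0 higher at an unadjusted p under 0.05 (Tek, -0.43, adjusted p = 0.0549). All 8 exceeded the array median, where 18.6% of probe sets were lower and 13.9% higher by that measure. For 13 T and NK cell markers the ranges were 5.10 to 5.39 and 5.10 to 5.19, with 9 lower and 4 higher. At an unadjusted p under 0.05 by limma, 3 were lower and 0 higher, beside 11.1% and 8.19% of all probe sets. These were Il7r (-0.54, adjusted p = 0.115), Ncr1 (-0.29, adjusted p = 0.150) and Klrb1c (-0.31, adjusted p = 0.231). Ncr1 and Klrb1c measured below the array median in every lung. The part of any of these cells in the MHC values was not tested. The defining markers of smooth muscle, Acta2 and Myh11 among them, were on a list of 8 with ranges of 8.43 to 8.79 and 8.51 to 8.62. Of these 8, 3 had higher and 5 lower means. At an unadjusted p under 0.05, 1 was higher and 1 lower, beside the same 13.9% and 18.6% of probe sets above the array median.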

How the data were processed

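Lung RNA of 3 Nfat5fl/fl and 3 Nfat5(SMC)-/- mice was measured on 1 whole-transcript mouse gene array per animal. The deposited values are log2 levels. Per the labels and methods, the authors computed them with RMA (version not stated) and quantile normalisation, after a custom chip definition (version 22) had joined the probes of each Entrez gene. This hides any shift shared by all genes. Arrays hold no counts, and precision is limited by their number. Symbols came from the platform table, updated through RefSeq names (25269 of 25428 probe sets with 1 symbol). Tests used limma 3.58.1 in R 4.3.3 (lmFit, eBayes, every lung, without covariates), Benjamini-Hochberg adjusted at 0.05, and were checked on simulated data. With 3 lungs a side the smallest p of an exact permutation test is 0.1. Members and lists were chosen with earlier results of these data known. Named genes are Nfat5, the core chains and loading genes, members with an unadjusted p under 0.05 or groups apart, each class's 2 highest and 2 lowest differences, and up to 3 per list and direction. H2-T22, H2-T23, H2-M3, Psmb8, Psmb9, Ctss, Ifng, Irf1 and the neighbours from Tapbp to H2-Eb2 were added with their values known. Windows of 200 bases before gene starts were searched on both strands. 16 alternatives were run. A few genes of the lists are not reported here.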

Additional observations from a re-analysis of the deposited data

How the results depend on the processing

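With 3 lungs a group, which genes pass the test depended on the settings. Over all probe sets limma called 208, against 0 by the methods' t-test, 2 with a mean-dependent prior, 3263 with array weights, 1 after cyclic loess, 33 above the array median, 43 after a gene span correction, and 1452 without control mouse 2 and Nfat5(SMC)-/- mouse 1, both of which stood apart in earlier results of these data. The count ranged from 0 to 980 with single lungs left out, the 980 being without Nfat5(SMC)-/- mouse 1. Of the 46 genes, 0 were called in 13 of the 16 alternatives. The exceptions were array weights with 4 (H2-Ke6, H2-Q10 and Tap2 higher, H2-Q5 lower), the fit without both lungs with 1 (Nlrc5, -0.62, adjusted p = 0.0475), and leaving out single lungs with 0 to 1 (H2-Q5 without Nfat5(SMC)-/- mouse 1).

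At an unadjusted p under 0.05, the 7 genes with higher means were 4 with the mean-dependent prior and 4 above the array median, and 4 to 7 without single lungs. The 0 with lower means became 1 by the t-test, 2 with the mean-dependent prior, 7 with array weights, 4 after the span correction and 3 without both lungs, and 0 to 3 without single lungs. The class Ib median was 0.092 above the array median, where fewer genes entered, and the classical class I median 0.056 without both lungs. The cause of the other shifts was not tested.

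Tap2, Tapbp, H2-Q7, H2-Q10, H2-DMa, H2-DMb1, H2-Oa and H2-Ke6 had higher means in all 16 alternatives, with adjusted p from 0.0229 to 0.569 over these genes. Most alternatives could not have changed that direction. As the groups of these genes did not overlap, leaving out lungs or weighting arrays could not reverse it. The t-test, the other priors, the level filters and the replicate block leave a difference as it is. Only cyclic loess and the span correction could have reversed it. Of the genes with small differences some changed sign. Ciita was -0.057 with array weights, -0.10 without both lungs and -0.045 to 0.13 without single lungs. Cd74 was 0.036 with array weights, 0.080 without both lungs and -0.18 to 0.0038 without single lungs. H2-Eb1 was 0.022 after cyclic loess and -0.036 to 0.024 without single lungs. Without single lungs H2-Aa ranged from -0.25 to 0.0088, H2-DMb2 from -0.24 to 0.13 and Tap1 from -0.13 to 0.052.

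With the mouse number as a replicate block, 0 probe sets and 0 of the 46 genes were called, and 1 of the 46 was lower at an unadjusted p under 0.05. Same-numbered lungs deviated together with correlations of 0.13, 0.41 and 0.08, and lungs of unlike number with -0.33 to 0.15. As the same-numbered values were not all over 0.1, the numbers were not taken to pair the mice. These few values cannot settle whether the mice were paired.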
